A study of Mus musculus with 8 samples.

Results

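The 10 genes described here encode the transcription factor NF-kB and the IkB proteins that bind it. They are the 5 subunit genes Nfkb1, Nfkb2, Rel, Rela and Relb, the 3 classical IkB genes Nfkbia, Nfkbib and Nfkbie, and the nuclear IkB genes Nfkbiz and Bcl3. They were picked out by gene symbol, with no threshold on their values, from a table of 23735 loci. Each symbol matched 1 locus, and all 10 passed the filter on low values, as did 11272 loci in all. RNA was sequenced from peritoneal macrophages of C57BL/6J mice aged 8 weeks, in 4 groups of 2 libraries. The groups were KO with LPS, KO untreated, WT with LPS and WT untreated. KO cells came from MED1ΔMac mice, labelled MED1-/- in the sample titles, and WT cells came from floxed MED1fl/fl mice, so the WT group also carried the floxed allele. LPS (lipopolysaccharide) was given at 50 ng/mL for 6 h. The labels do not name the Cre driver or the exons it removes, nor say whether each library came from a separate mouse or a pool. All p-values therefore measure change against the spread between these libraries, which may be technical.

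NF-kB is a family of dimers. RelA (from Rela), c-Rel (from Rel) and RelB (from Relb) carry domains that activate transcription, whereas Nfkb1 and Nfkb2 encode the precursors p105 and p100, which are processed to the DNA-binding subunits p50 and p52. Classical IkB proteins hold the dimers in the cytoplasm until an IkB kinase marks them for degradation, and many of these genes are themselves NF-kB targets, so the pathway rebuilds its own inhibitors. Nfkbiz and Bcl3 encode nuclear relatives, IkBζ and Bcl-3, that bind p50 or p52 on DNA and alter which genes are transcribed. In macrophages LPS activates the pathway through Toll-like receptor 4. MED1 is a subunit of Mediator, the complex that links transcription factors to RNA polymerase II.

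The steps between low values put the depth of the libraries at about 6.89 to 14.2 M mapped reads, and the members rested on an estimated 218 to 9215 reads each. All 8 macrophage markers were detected, with summed levels of 6171 to 35330 RPKM, most of it the lysozyme gene Lyz2. RPKM is a level corrected for transcript length and for the depth of the library. Over genotypes 4 of the 8 (Lyz2, Cd68, Gata6 and Fcgr1) fell with LPS, against 21.8% of all loci. Of 14 alternatives, the call held in 14 for Gata6, 8 for Lyz2, 8 for Cd68 and 5 for Fcgr1, whose log2 change was -2.48 in KO and -0.03 in WT. All 5 B cell markers were detected as well, at summed levels of 353 to 1491 RPKM. Summed mast cell markers ranged from 0.103 to 131 RPKM and T cell markers from 5.65 to 50.5 RPKM. Neutrophil markers ranged from 39.8 to 121 RPKM, most of it S100a8. S100a9, Mpo and Elane reached at most 5.63, 0.929 and 1.01 RPKM. Dendritic cell, NK cell and mesothelial markers summed to at most 5.90, 4.93 and 1.20 RPKM in any library. The mast cell, T cell, NK cell and mesothelial sums were each higher in library B than in library A of every group. In bulk RNA, fewer cells of a type and less RNA per cell cannot be told apart. Med1 itself stood at 24.4 and 20.3 RPKM in KO with LPS, 17.6 and 23.4 RPKM in KO untreated, 24.7 and 21.6 RPKM in WT with LPS, and 21.7 and 24.8 RPKM in WT untreated. These ranges overlap, so the RNA of the targeted gene did not separate the genotypes, and a gene-level value does not check a deletion of a few exons. The genotypes used here are those of the labels.

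NF-kB dimers act through kB elements in promoters and enhancers, including those of their own genes. Of the 10 members, 7 have an entry in the RefSeq promoter table (GRCm38.p6), which spans 250 bases before to 50 bases after each gene start. Nfkb1, Relb and Nfkbiz are named only. The kB consensus was searched on both strands. It was found in 5 of the 7 (Nfkb2, Rel, Nfkbia, Nfkbie and Bcl3) and had no match in the windows of Rela and Nfkbib. The same search matched 4.51% of 32851 promoters, and 5.14% of the 27025 genes they belong to. A narrower motif, GGGNNTTTCC, also read on both strands and largely contained in the first, matched 3 of the 7 (Nfkb2, Rel and Nfkbia) and 1.63% of promoters or 1.89% of genes. A match is a run of letters and not a measured binding site. The Nfkbia promoter is shown because Nfkbia had the highest level among the IkB genes in every group. These are the 250 bases before its start, on the minus strand at chr12:55492648-55492897, with the match in capitals:
Nfkbia: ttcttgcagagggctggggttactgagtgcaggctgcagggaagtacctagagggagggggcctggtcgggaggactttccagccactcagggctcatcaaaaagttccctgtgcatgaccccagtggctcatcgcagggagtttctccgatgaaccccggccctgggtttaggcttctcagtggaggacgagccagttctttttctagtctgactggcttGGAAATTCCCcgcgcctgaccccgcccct
The 30-base windows around the matches of the other genes are shown for comparison, each along the strand of its gene. Capitals mark the match, and a run longer than the 10-letter motif holds overlapping matches.
Nfkb2, chr19:46304688-46304717, plus strand: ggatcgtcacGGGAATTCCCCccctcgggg
Nfkb2, chr19:46304716-46304745, plus strand: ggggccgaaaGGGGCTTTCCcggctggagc
Nfkb2, chr19:46305449-46305478, plus strand: tccgacggcaGGAATGTCCCcacaaaagcc
Nfkb2, chr19:46305695-46305724, plus strand: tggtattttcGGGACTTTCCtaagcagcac
Rel, chr11:23771042-23771071, minus strand: cgtaagcagcGGGAAATCCCCccccctccc
Nfkbie, chr17:45555584-45555613, plus strand: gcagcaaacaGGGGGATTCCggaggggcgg
Bcl3, chr7:19822734-19822763, minus strand: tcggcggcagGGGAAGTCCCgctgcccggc
Nfkb2 has 3 annotated starts in the table, and its matches are spread over the windows of all of them. The Nfkbia match lies 29 bases before the start and the Bcl3 match just after the start, at position 3.

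LPS raised the RNA of all 10 members when the change was averaged over genotypes. The log2 change, taken on log2(RPKM + 1), ran from 0.64 for Rel to 2.27 for Nfkbiz, with a median of 1.16 against -0.26 over all loci tested. The threshold for a call was an adjusted p of 0.05 (limma, Benjamini-Hochberg over all loci). By that rule 10 of 10 members were called higher, against 8.46% of all loci. All 4 LPS libraries lay above all 4 untreated libraries for 9 of 10 members, against 9.2% of loci, and Rel was the exception. Over all loci 954 were called higher and 2456 lower. Median-ratio scaling of the libraries gave 1586 and 1523 and moved the median of all loci to -0.01, and quantile normalization gave 1352 and 1732 with a median of -0.05. All 10 members remained called higher under both scalings.

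**Figure D1:**
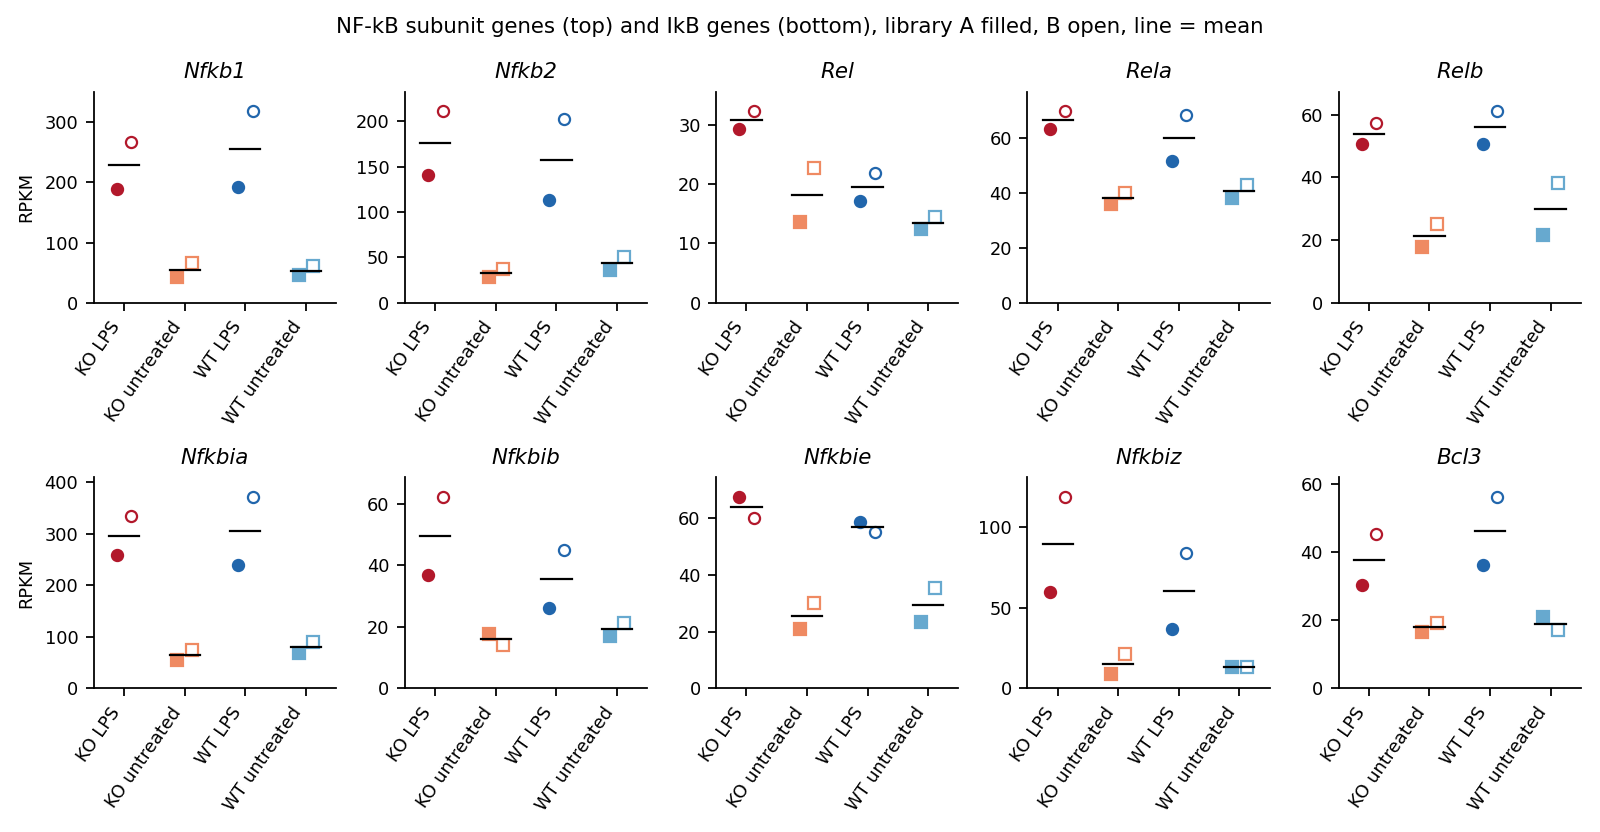
RPKM of the 10 genes by group on the x axis, 1 panel per gene, with library A (filled) and library B (open) of each group as points and the group mean as a line. The LPS groups lie above the untreated groups in both genotypes for every gene, except that for Rel the higher KO untreated library (22.8 RPKM) lies above both WT libraries with LPS.

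The precursor genes changed most among the subunits. Nfkb1, on mm9 chr3:135247619-135354511, had 189.9 and 268 RPKM in KO with LPS against 42.0 and 66.4 RPKM in KO untreated. In WT it had 192 and 319 RPKM with LPS against 46.0 and 61.1 RPKM untreated. The lowest LPS library was thus well above the highest untreated one, and library B was above library A in all 4 groups. The group means were 229 ± 55.3 RPKM in KO with LPS and 54.2 ± 17.2 RPKM in KO untreated (SD, n = 2 each), a 4.22-fold difference. In WT they were 256 ± 89.9 RPKM with LPS and 53.5 ± 10.7 RPKM untreated (SD, n = 2 each), a 4.77-fold difference. Its log2 change was 2.07 in KO (adjusted p = 0.0223) and 2.202 in WT (adjusted p = 0.0205), both called by limma.

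Nfkb2, whose promoter windows hold the largest number of matches shown above, lies on mm9 chr19:46379227-46386580. It had 141 and 211 RPKM in KO with LPS against 28.2 and 36.7 RPKM in KO untreated. WT cells had 113 and 202 RPKM with LPS against 36.6 and 50.8 RPKM untreated. No LPS library overlapped an untreated one. The mean was 5.42-fold higher in KO and 3.60-fold higher in WT, with log2 changes of 2.38 (adjusted p = 0.0161) and 1.78 (adjusted p = 0.0325). The intervals of those 2 changes overlapped, at 1.57 to 3.20 in KO and 0.97 to 2.60 in WT. In the annotation Nfkb2 shares 4 bases with Psd on the opposite strand.

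Rela, the main activating subunit of the classical pathway, moved little by comparison. At mm9 chr19:5637483-5648130, it had 63.2 and 69.9 RPKM in KO with LPS against 36.1 and 40.1 RPKM in KO untreated. The WT libraries had 51.6 and 68.5 RPKM with LPS against 38.3 and 43.0 RPKM untreated. All LPS libraries were above all untreated ones, by a smaller margin than for the precursor genes. Its average log2 change was 0.66 (SE 0.15, adjusted p = 0.0164). It was not called in either genotype alone, with values of 0.79 in KO (adjusted p = 0.0635) and 0.54 in WT (adjusted p = 0.137).

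Relb, the partner of p52 in the alternative pathway, lies on mm9 chr7:20191566-20214787. It had 50.7 and 57.3 RPKM in KO with LPS against 17.7 and 25.03 RPKM in KO untreated. In WT it had 50.6 and 61.2 RPKM with LPS against 21.5 and 38.2 RPKM untreated. The WT untreated libraries were further apart than those of the other groups, yet all stayed below every LPS library. The average log2 change was 1.12 (SE 0.21, adjusted p = 0.0115), and Relb was called in KO at 1.31 (adjusted p = 0.0483) but not in WT at 0.93 (adjusted p = 0.101).

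Rel, which encodes c-Rel, a subunit best known from lymphocytes, was lowest of the 5 in every group. On mm9 chr11:23641514-23670970, it had 29.3 and 32.3 RPKM in KO with LPS against 13.5 and 22.8 RPKM in KO untreated. WT cells had 17.2 and 21.9 RPKM with LPS against 12.4 and 14.5 RPKM untreated. Within each genotype the groups did not overlap, but the higher KO untreated library exceeded both WT libraries with LPS. The average log2 change was 0.64 (SE 0.19, adjusted p = 0.0427), close to the threshold. The call held in 7 of 14 alternatives and was lost with no filter on low values. It was also lost on leaving out any 1 of 6 of the 8 libraries. For the KO libraries the adjusted p was then 0.0725 (untreated A), 0.0866 (LPS A) and 0.141 (LPS B), and for the WT libraries 0.133 (untreated A), 0.0925 (untreated B) and 0.117 (LPS B).

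The classical inhibitors rose with the subunits. Nfkbia, which encodes IkBα, the inhibitor that is degraded and remade fastest, lies on mm9 chr12:56590398-56593634. It had 258 and 333 RPKM in KO with LPS against 54.8 and 73.5 RPKM in KO untreated. The WT libraries had 239 and 372 RPKM with LPS against 69.3 and 89.2 RPKM untreated. It was the most abundant of the 10 in each group mean, and the LPS libraries did not overlap the untreated ones. The mean was 4.61-fold higher in KO and 3.85-fold higher in WT, with log2 changes of 2.19 (adjusted p = 0.0131) and 1.91 (adjusted p = 0.0197). Averaged over genotypes the change was 2.05 (SE 0.21, adjusted p = 0.00184), the lowest adjusted p of the members.

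Nfkbib, which encodes IkBβ, lies on mm9 chr7:29543270-29552531 and shares 778 bases with Sirt2 on the opposite strand. No label states the strandedness, so reads from the shared bases cannot be told apart. It had 36.8 and 62.4 RPKM in KO with LPS against 17.8 and 14.2 RPKM in KO untreated. In WT it had 26.1 and 45.1 RPKM with LPS against 17.0 and 21.3 RPKM untreated. All LPS libraries were above all untreated ones, and the libraries within each LPS group were far apart. The average log2 change was 1.18 (SE 0.24, adjusted p = 0.0137). The change was 1.54 in KO (adjusted p = 0.0447) and 0.82 in WT, where it was not called (adjusted p = 0.166).

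Nfkbie, which encodes IkBε, lies on mm9 chr17:45692665-45700118. It had 67.7 and 60.0 RPKM in KO with LPS against 20.9 and 30.3 RPKM in KO untreated. WT cells had 58.8 and 55.2 RPKM with LPS against 23.4 and 35.3 RPKM untreated. The LPS libraries of each genotype lay close together, and none overlapped an untreated library. Its log2 change was 1.31 in KO (adjusted p = 0.0352), 0.96 in WT (not called, adjusted p = 0.0708) and 1.14 on average (SE 0.19, adjusted p = 0.00737).

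Among the nuclear IkB genes, Nfkbiz had the largest average change of the 10 and ranked 161 of 11272 loci. IkBζ is needed for transcription of Il6 and other secondary LPS response genes in mouse macrophages. Nfkbiz, on mm9 chr16:55811488-55839012, had 60.0 and 119 RPKM in KO with LPS against 8.85 and 21.3 RPKM in KO untreated. The WT libraries had 36.8 and 84.2 RPKM with LPS against 13.1 and 13.1 RPKM untreated. Library B was higher than library A by more than 1.5 times in 3 of the 4 groups, and the LPS and untreated groups did not overlap. The average log2 change was 2.27 (SE 0.37, adjusted p = 0.00737), with 2.53 in KO (adjusted p = 0.038) and 2.01 in WT (not called, adjusted p = 0.0651).

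Bcl3, on mm9 chr7:20393811-20408119, overlaps the predicted genes Gm16175 and Gm16174 on the opposite strand by 2264 and 2073 bases, whose reads cannot be told apart from its own. It had 30.4 and 45.4 RPKM in KO with LPS against 16.7 and 19.2 RPKM in KO untreated. In WT it had 36.3 and 56.5 RPKM with LPS against 20.9 and 17.2 RPKM untreated. Untreated libraries were close together in both genotypes and below all LPS libraries. The average log2 change was 1.11 (SE 0.20, adjusted p = 0.0099). Neither genotype alone passed, at 1.01 in KO (adjusted p = 0.0753) and 1.21 in WT (adjusted p = 0.0513).

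Within single genotypes, 7 of 10 members were called higher in KO (all but Rel, Rela and Bcl3), against 3.31% of loci, and 3 of 10 in WT (Nfkb1, Nfkb2 and Nfkbia), against 3.17% of loci. The median change of the members was 1.42 in KO and 1.09 in WT, against -0.28 and -0.25 over all loci. In each genotype both LPS libraries of all 10 members lay above both untreated ones, against 15.1% of loci in KO and 18.2% in WT. The counts of calls rest on single libraries. In KO, 1 member was called without untreated library A, when 1.94% of all loci were. In KO 0 were called without untreated library B (0.44% of loci), LPS library A (0.499%) or LPS library B (0.152%). Each such fit leaves 1 library in a group, assumed to vary like the others. In WT, 0 were called without untreated library A (0.0535% of loci), untreated library B (0.615%) or LPS library B (0.223%), and 5 without LPS library A (4.62%). The share of all loci called thus moved in the same direction as the count of members in each of these fits. For the average over genotypes, 7 of 10 were called without KO LPS B or without WT untreated A, with Rel, Rela and Nfkbib lost in both, when 4.36% and 4.94% of loci were called higher. With no filter on low values KO had 2 calls, and 1.02% of loci were called.

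**Figure D2:**
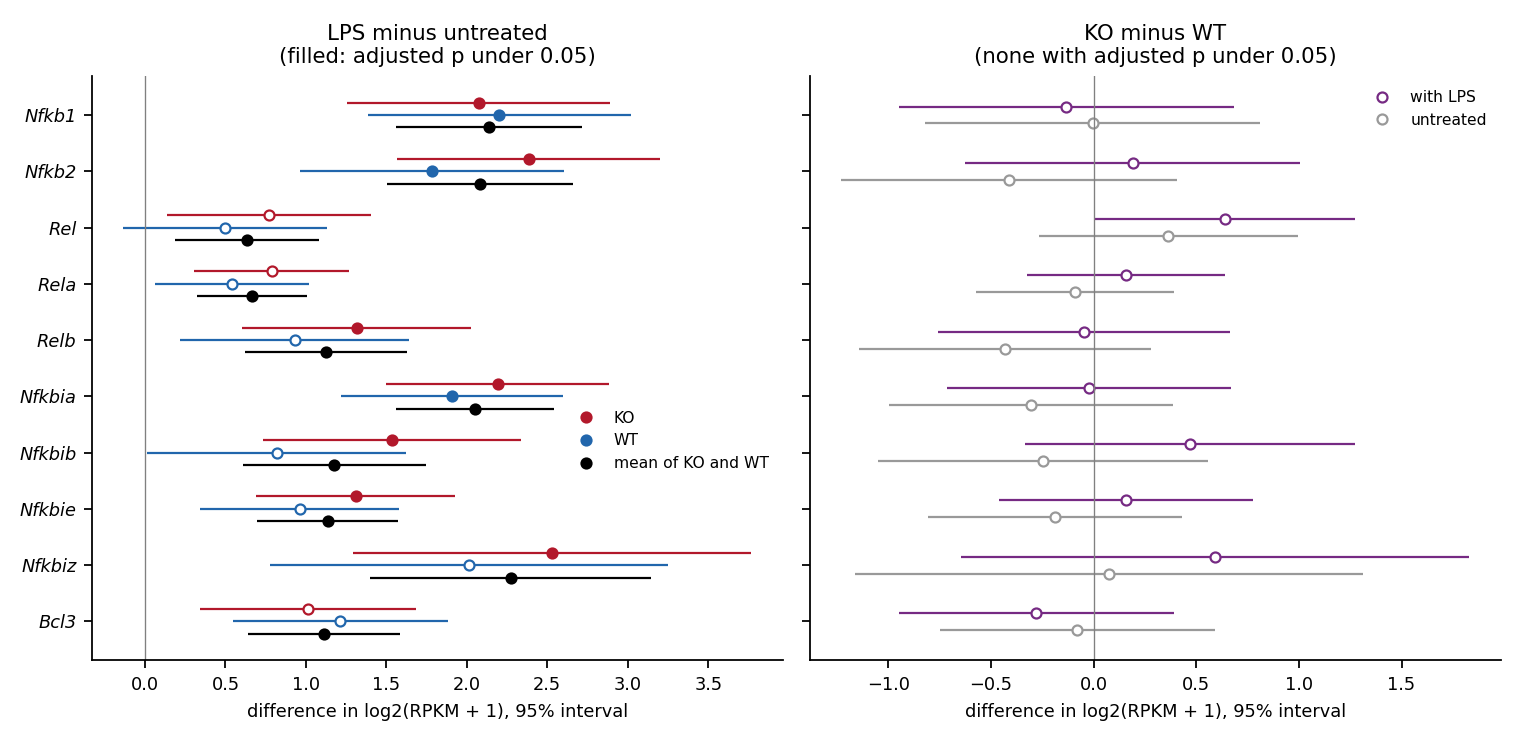
Differences in log2(RPKM + 1) with their 95% intervals for each gene, LPS minus untreated on the left (KO, WT and their mean) and KO minus WT on the right (with LPS and untreated). Filled points had an adjusted p under 0.05; all 10 means on the left are filled, and none of the points on the right is.

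Because the genes rose by different amounts, the make-up of both families differed between LPS and untreated libraries. Nfkb1 held 40.1 to 47.4% of the summed RPKM of the 5 subunits over the 4 LPS libraries, against 29.4 to 34.8% over the 4 untreated ones. Nfkb2 held 26.6 to 33.1% with LPS against 19.2 to 24.5% untreated. The shares of the activating subunits were lower with LPS, although each of these RNAs was higher. Rela held 10.2 to 13.4% with LPS against 20.7 to 26.2% untreated, Relb 8.97 to 11.9% against 12.9 to 18.4%, and Rel 3.25 to 6.18% against 6.99 to 11.9%. The ranges of all 5 subunit shares were separate. The ratio of Nfkb1 to Rela was 3.003 to 4.66 with LPS against 1.16 to 1.66 untreated. These are RNA shares per transcript length and say nothing of protein, and they were not tested.

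In the IkB family Nfkbia held 53.7 to 60.7% of the summed RPKM with LPS against 46.0 to 50.6% untreated. Nfkbie held 9.005 to 14.9% with LPS against 16.3 to 20.05% untreated, and Bcl3 held 6.71 to 9.21% against 9.78 to 14.5%. The shares of Nfkbib and Nfkbiz overlapped, at 6.57 to 10.1% with LPS against 8.94 to 14.97% untreated for Nfkbib, and 9.29 to 19.2% against 7.42 to 13.4% for Nfkbiz. Both sums were larger with LPS in every library. The subunit sum was 424 to 673 RPKM with LPS against 138 to 208 RPKM untreated, and the IkB sum 397 to 620 RPKM against 119 to 176 RPKM. The ratio of the IkB sum to the subunit sum was 0.911 to 0.971 with LPS and 0.829 to 0.927 untreated, which overlap. The ratio of Nfkbia to Rela was 4.08 to 5.43 with LPS against 1.52 to 2.08 untreated.

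**Figure D3:**
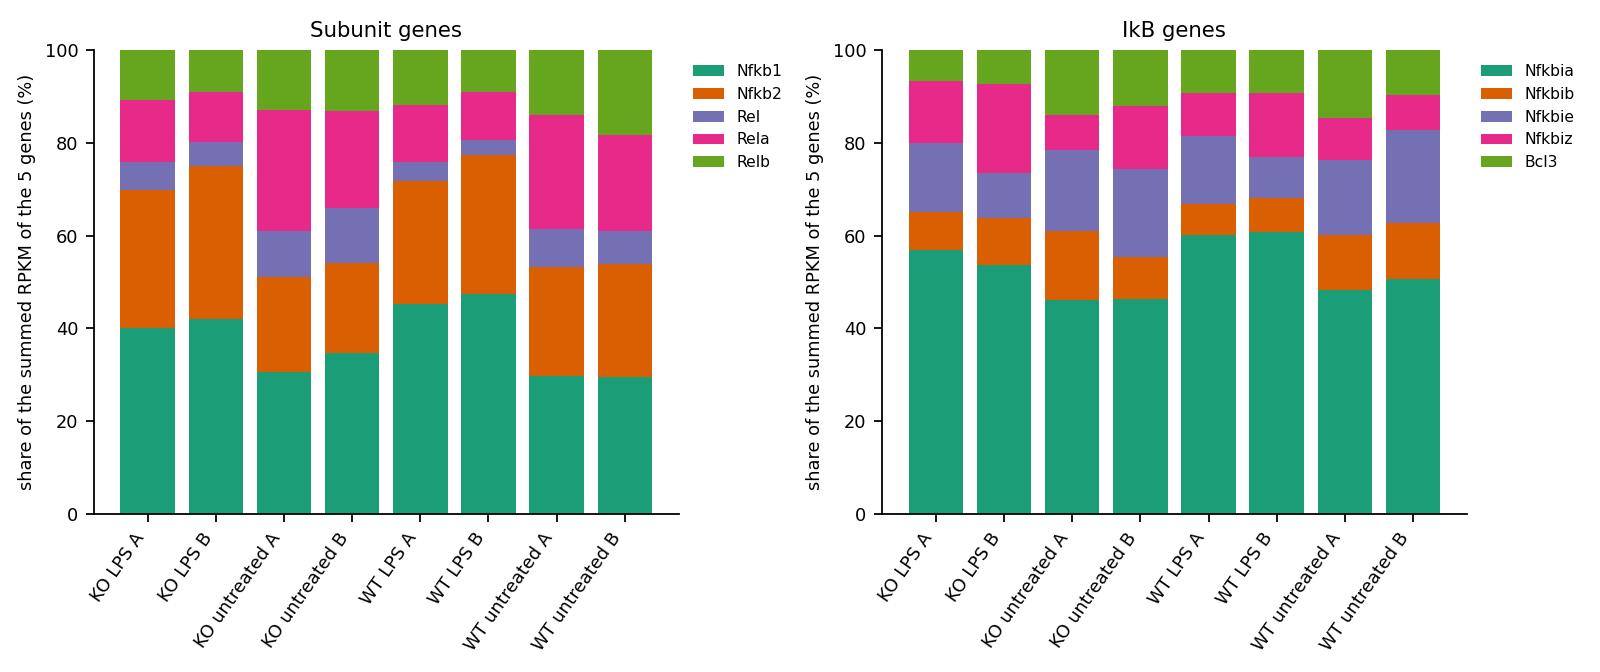
Share of each gene in the summed RPKM of its family (percent, y axis) for each of the 8 libraries (x axis), subunits on the left and IkB genes on the right, as stacked bars. Nfkb1 and Nfkb2 take larger shares in the LPS libraries, and Rela takes 10.2 to 13.4% there against 20.7 to 26.2% in untreated libraries.

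The order of levels within each family, in RPKM, was also not the same in every group. Nfkb1 had the highest mean of the subunits and Rel the lowest in all 4 groups. With LPS the order was Nfkb1, Nfkb2, Rela, Relb and Rel in both genotypes, where Nfkb1 overlapped Nfkb2, and in WT also Rela overlapped Relb. Untreated WT had the same order, with Nfkb1, Nfkb2 and Rela overlapping from one neighbour to the next. In untreated KO Rela stood second, at a mean of 38.1 RPKM against 32.5 RPKM for Nfkb2, but their libraries overlapped. Nfkbia led the IkB genes in all groups and did not overlap its neighbour. Nfkbiz had the lowest mean untreated, 15.1 RPKM in KO and 13.1 RPKM in WT, and the second highest with LPS, 89.6 RPKM in KO and 60.5 RPKM in WT. In untreated KO its libraries overlapped those of Nfkbib, and its library B (21.3 RPKM) was above both libraries of Nfkbib and of Bcl3. With LPS its libraries overlapped those of Nfkbie, next in the order.

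The comparison of KO with WT asks whether the loss of MED1 changed these genes. No member was called. Untreated, the median of the 10 was -0.14 against 0.07 over all loci, with 0 of 10 called against 0.0266% of loci and 0 at an unadjusted p under 0.05. With LPS the median was 0.16 against 0.05, with 0 of 10 called against 0.00887% of loci and 1 (Rel) at an unadjusted p under 0.05. Averaged over treatments the median was -0.04 against 0.06, with 0 of 10 called against 0.0355% of loci and 1 (Rel) at an unadjusted p under 0.05. Untreated, no member had KO libraries clear of the WT libraries, against 23.6% of loci that did in either direction. With LPS, 2 of 10 did, Rel and Nfkbie, both higher in KO, against 30.4% of loci, so a count of 2 does not stand out from the background. For Nfkbie the KO minus WT difference with LPS was 0.16 (95% interval -0.46 to 0.78).

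Rel had the largest average difference between genotypes among the 10. The KO minus WT difference was 0.64 with LPS (SE 0.27, 95% interval 0.01 to 1.27, adjusted p = 1) and 0.37 untreated (SE 0.27, interval -0.27 to 0.998, adjusted p = 1). The average was 0.50 (SE 0.19, interval 0.05 to 0.95, adjusted p = 0.999). Without KO untreated B the untreated difference was 0.01 and the average 0.33, and without KO untreated A they were 0.72 and 0.68. The summed RPKM of 5 B cell markers (Cd79a, Cd79b, Ms4a1, Pax5 and Blk) was 1241 and 850.2 in KO with LPS and 502 and 1491 in KO untreated. In WT the sum was 538 and 353 with LPS and 548 and 482 untreated. In KO with LPS and in both WT groups, library A had the higher B cell sum and library B the higher Rel. The T cell sum, like Rel, was higher in library B of every group. For libraries A and B it was 7.46 and 27.9 RPKM in KO with LPS and 5.88 and 50.5 RPKM in KO untreated. In WT it was 5.65 and 11.4 RPKM with LPS and 7.93 and 18.5 RPKM untreated. The KO library with the highest B cell sum, untreated B, also had the highest Rel of the 4 untreated libraries. Averaged over treatments, the KO minus WT differences of the 5 B cell markers ran from 0.85 (Cd79a) to 1.19 (Ms4a1), against 0.50 for Rel. Their unadjusted p in limma was 0.0188 to 0.0385, against 0.0325 for Rel, and none was called (adjusted p = 0.999). The part of B cells and T cells in the Rel values was not tested. Among macrophage markers, and against 23.6% of loci apart untreated and 30.4% with LPS, only Lyz2 was apart between genotypes in both treatments. It had 5111 and 4547 RPKM in KO with LPS against 17329 and 13231 RPKM in WT with LPS, and 8503 and 15001 RPKM in KO untreated against 28588 and 32317 RPKM in WT untreated. Its average KO minus WT difference was -1.54 (unadjusted p = 0.00116, adjusted p = 0.999), so it was not called. The other macrophage markers went both ways and were not called either. Their average differences were -0.58 for Csf1r, -0.35 for Fcgr1, -0.28 for Itgam and -0.05 for Gata6. Those of Cd68, Icam2 and Emr1 were 0.36, 0.25 and 0.10. The part of Lyz2 in the genotype values of the members was not tested.

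**Figure D4:**
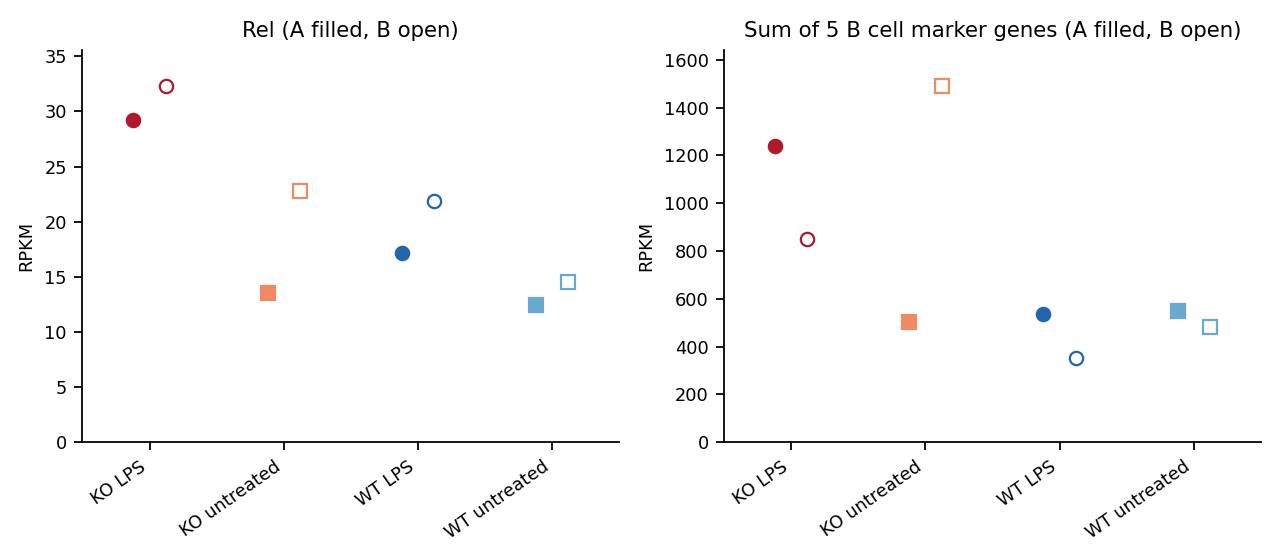
RPKM of Rel (left) and the summed RPKM of 5 B cell marker genes (right) for each library, by group on the x axis, with A filled and B open. Both KO libraries with LPS and KO untreated B lie above every WT library in both panels, and KO untreated A does not.

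The response to LPS was compared between genotypes directly by the interaction, the log2 change in KO minus that in WT. It was positive for 8 of 10 members, against 46.4% of all loci, with a median of 0.31 against -0.03 over all loci. Of the members 0 of 10 were called, against 0.0355% of loci, and 0 had an unadjusted p under 0.05. The range ran from -0.20 for Bcl3 to 0.72 for Nfkbib, and every adjusted p was 0.9999. For Nfkbib the 95% interval was -0.42 to 1.85, for Nfkb2 (0.60) -0.56 to 1.76, and for Nfkbiz (0.52) -1.23 to 2.27. A gene called in KO and not in WT is therefore not shown to differ between them. The intervals are wide enough to hold large differences in either direction.

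The kinases, ligases and deubiquitinases around these genes changed much less uniformly. Over genotypes, 3 of 7 genes of the IkB kinase complex and TAK1, which phosphorylate IkB proteins or activate the kinase, passed the test in either direction, against 30.3% of all loci. Ikbkg, the NEMO scaffold, was higher at 0.90 (adjusted p = 0.0129), Tab2 was higher at 0.49 (adjusted p = 0.0455) and Tab1 lower at -0.73 (adjusted p = 0.0461). Of the catalytic kinases, Ikbkb had 0.35 (adjusted p = 0.115) and Chuk 0.04 (adjusted p = 0.828). The median of this list was 0.10. In KO alone only Ikbkg was called, at 1.20 (adjusted p = 0.039), and in WT none was. That KO call held in 7 of 14 alternatives. Calls near the threshold held in few settings, 6 of 14 alternatives for Tab2 and 3 of 14 for Tab1, and Ikbkg lost its call over genotypes without KO LPS B or WT untreated A.

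Of the 5 genes of the alternative pathway kinase and its brakes, 2 were called higher, against 8.46% of all loci. These were Birc3 at 1.12 (adjusted p = 0.0128) and Traf2 at 0.49 (adjusted p = 0.0479), with a list median of 0.28. Birc3 and Traf2 encode parts of the complex that destroys the kinase NIK. Birc2 had 0.28 and Traf3 0.17, and Map3k14, which encodes NIK itself, had -0.05 (adjusted p = 0.836). Of the IKK-related kinases and their adaptor, 2 of 3 were called higher, against the same 8.46%. These were Tank at 1.13 (adjusted p = 0.00345) and Tbk1 at 0.38 (adjusted p = 0.0493). Ikbke had a larger but more variable change, at 1.45 (adjusted p = 0.0618). Traf2 held its call in 6 of 14 alternatives and Tbk1 in 4 of 14, against 14 of 14 for Tank and 13 of 14 for Birc3, which was lost without KO LPS B.

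The deubiquitinases and ubiquitin binders, which switch the pathway off, had 2 of 7 called higher, against 8.46% of all loci, and a list median of 0.12. Tnfaip3 (A20) had 123 and 250.01 RPKM in KO with LPS against 22.8 and 22.8 RPKM in KO untreated, and 79.3 and 243 RPKM in WT with LPS against 24.4 and 26.7 RPKM in WT untreated. Its average change was 2.65 (adjusted p = 0.00441), and that of Tnip1, its binding partner, 2.50 (adjusted p = 0.00135). Both were called in KO and in WT as well. Of 14 alternatives, the Tnfaip3 call held in 9 in KO and 5 in WT, and the Tnip1 call in 11 in KO and 12 in WT. Otulin had -0.71 (adjusted p = 0.0511) and Otud7b -0.21 (adjusted p = 0.262). None of the remaining regulators was called higher, against 8.46% of all loci, or 30.3% called in either direction. IkB degradation, the ligase that marks IkB, had 0 of 7 called and a median of -0.22, with Nedd8 at -0.54, Skp1a at -0.37, Btrc at -0.35 and Rbx1 at -0.22. Other IkB-like proteins and subunit regulators had 0 of 9 called and a median of -0.11, with Nkiras2 at -0.58, Commd1 at -0.55, Pdlim2 at -0.55 and Ppp1r13l at -0.27, and Nfkbid, a nuclear IkB, at 0.23 (adjusted p = 0.251). Coactivators had 1 of 7 called, Ncoa3 at -0.58 (adjusted p = 0.0351), with a median of -0.22, Ep300 at -0.39, Kat2b at -0.39 and Carm1 at -0.22. The Ncoa3 call held in 6 of 14 alternatives and was lost under both other scalings.

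The textbook targets of NF-kB were called higher for 20 of 22 genes in each LPS contrast. This list was drawn up with earlier results of these data known. It leaves out the members, many of which are NF-kB targets too. Its counts and median are therefore a description and not a test. The share of all loci called higher was 3.31% in KO, 3.17% in WT and 8.46% over genotypes. The list median was 4.85 in KO, 4.10 in WT and 4.73 over genotypes. The largest average changes were those of the cytokines Il1b (8.32) and Il6 (8.00), the prostaglandin synthase Ptgs2 (6.78) and the chemokine Cxcl1 (6.54). Tnf had 4.75 (6.15 in KO and 3.35 in WT) and the adhesion molecule Icam1 1.70 (1.97 in KO and 1.44 in WT). The other genes called were Ccl5, Csf2, Cxcl2, Lcn2, Ccl4, Il12b, Nos2, Ccl3, Traf1, Bcl2a1b, Cd40, Sod2, Vcam1 and Cflar, with changes from 1.80 (Cflar) to 6.36 (Ccl5). Irf1 had 1.71 (adjusted p = 0.061) and Cd83 1.12 (adjusted p = 0.0713), neither of which was called. The number called fell to 0 in WT without WT untreated A, to 1 without WT LPS B and to 6 without WT untreated B, and in KO to 3 without KO LPS B, to 6 without KO untreated B and to 11 without KO untreated A or KO LPS A. Over genotypes it stayed between 19 and 22 in all 14 alternatives, of 21 or 22 tested. The share of all loci called higher was also lower in each of the KO and WT fits named than in the full fit. For the textbook targets the list median was 0.55 for KO minus WT with LPS, against 0.05 over all loci. The list median was 0.57 for the interaction, against -0.03, and -0.09 for KO minus WT untreated, against 0.07. In none of the pathway lists was a gene called in a genotype comparison or in the interaction.

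**Figure D5:**
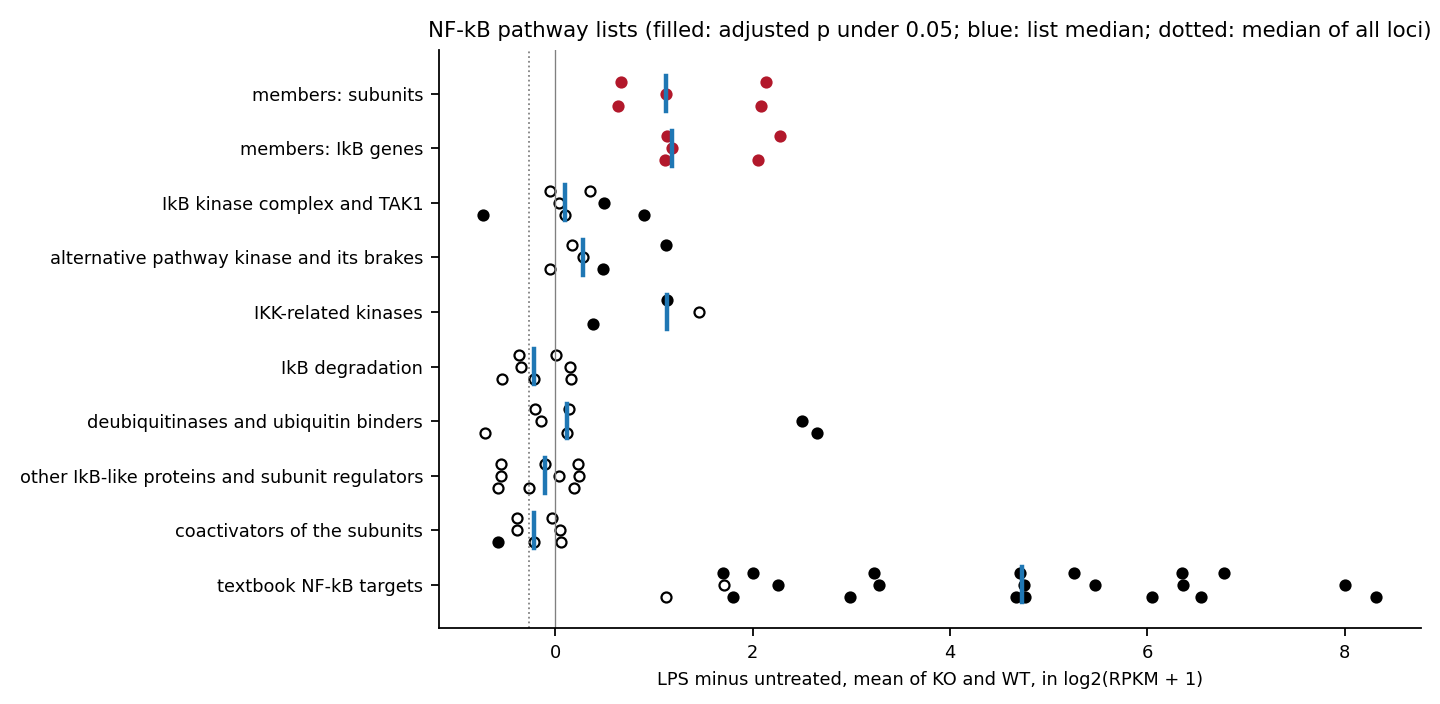
Average log2 change with LPS (x axis, KO and WT averaged, on log2(RPKM + 1)) for the 10 members in red and for each list of other pathway genes in black, 1 point per gene, filled where the adjusted p was under 0.05. Blue bars mark list medians, 1.12 for subunits, 1.18 for IkB genes and 4.73 for textbook targets, and the dotted line marks the median of all loci at -0.26. The target list leaves out the members and was drawn up with earlier results of these data known.

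Genes with profiles most like those of each member were ranked by the root-mean-square difference of log2 values over the 8 libraries, after each gene was centred on its own mean. Loci with several symbols or a predicted name were left out. For Nfkbia the nearest were Cth (0.15), Ehd1 (0.16) and Mthfd2 (0.17), and for Nfkb2 they were Cth (0.17), Mthfd2 (0.18) and Pde10a (0.20). For Nfkb1 they were Rcl1 (0.20), Cth (0.20) and Lrrc8c (0.21). Rela was matched closely by Bcl10 (0.09), Egfr (0.11) and Hspa13 (0.11), and Rel by Mov10 (0.14), Sp100 (0.15) and Tpst1 (0.15). Relb had Cebpd (0.11), Gdap10 (0.12) and Sqrdl (0.15). Bcl3 had Sfrp1 (0.11), Galnt3 (0.11) and Chic2 (0.12), and Nfkbib had Hunk (0.16), Ankrd33b (0.17) and Calcr (0.17). Nfkbie had Gpd2 (0.14), St3gal3 (0.14) and Tank (0.14). Nfkbiz had more distant neighbours, Epha4 (0.29), Il1bos (0.30) and Ccnd2 (0.32). Among the members themselves Nfkb2 and Nfkbia were closest (0.12), followed by Nfkb1 and Nfkbia (0.14) and by Relb and Nfkbie (0.18), whereas the nearest other member was at 0.27 for Rel and for Rela, 0.32 for Bcl3, 0.34 for Nfkbib and 0.35 for Nfkbiz. All genes compared share the same 8 libraries, depths and LPS contrast, and the likeness is a description only.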

How the data were processed

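The gene annotation and strandedness behind the values were not given in the sources used here. Per the submitters' processing notes the tools were bcl2fastq, TopHat2 2.0.14 and Cufflinks 2.2.1, on mm9. The authors deposited RPKM values for 23735 loci (24192 lines, of which 457 repeat a locus under another symbol), and 0 sample columns were left out. The filter asked for 1 RPKM or more in 2 or more libraries and left 11272 loci, and log2(RPKM + 1) was fitted in limma 3.58.1 (R 4.3.3), with 1 mean per group over all 8 libraries, trended variances, two-sided tests and Benjamini-Hochberg adjustment over all loci. A fold on that scale understates the change of low genes. The fit was tested on simulated data in which libraries varied independently. That test does not cover the shared deviations of same-lettered libraries given below. Contrasts were LPS minus untreated in KO, in WT and averaged, KO minus WT untreated, with LPS and averaged, and the interaction. Replicate letters A and B were not treated as pairs. Depth was estimated from 731 genes (quartiles 13.2 and 14.8 M reads for the deepest library, KO untreated A); no counts were given, so no counting intervals are printed.

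Alternatives were a pseudocount of 0.1 RPKM, no filter, a filter of 5 RPKM, median-ratio scaling, quantile normalization, the letter block and leaving out each library. The members and lists were chosen with earlier results of these data known. A marker gene is not reported here and was left out of its list. All 10 members are named; of each list, the called genes and up to 4 with the largest average LPS change are named (Irf1, Cd83, Nfkbid and Map3k14 were added after their values were seen); profile neighbours are the 3 nearest loci with a single symbol. Gene positions are from GENCODE vM1 on mm9, promoters from RefSeq on GRCm38.p6. Python 3.11.15, numpy 2.4.6, pandas 2.3.3 and matplotlib 3.10.9 were used.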

Additional observations from a re-analysis of the deposited data

How the results depend on the processing

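Over 14 alternatives, 518 values of the members were recomputed: 441 kept their direction and side of the threshold, 59 lost a call, 16 gained one and 2 changed sign. These values were all those of the LPS contrasts and a part of the others. That part held the genotype differences of Rel, the Nfkbie difference with LPS and the interactions of Nfkbib, Nfkb2 and Nfkbiz. Other genotype and interaction values were left out, so the count of sign changes does not cover them. All 140 values in each LPS contrast stayed positive, and no member was called in a genotype comparison or the interaction under any of the 14. Members called with LPS in KO (7) numbered 2 with no filter on low values and 0 to 9 on leaving out 1 library. Members called with LPS in WT (3) numbered 0 to 5 on leaving out 1 library. Over genotypes (10) they numbered 9 with no filter and 7 to 10 on leaving out 1 library. The interaction of Nfkbiz ranged from -0.069 to 1.11 on leaving out 1 library, and was below 0 without KO untreated A (-0.069) and without WT LPS A (-0.066). With the letter as a replicate block, 7 members were called in WT (5.71% of all loci) and 10 in KO (5.25%), where Rel (adjusted p = 0.049), Rela (0.0271) and Bcl3 (0.0396) were called too. Deviations of same-lettered libraries from their group means correlated at 0.20 to 0.42 across loci over the 6 pairs of groups, and 6 of 10 members had library B above library A in all groups; the labels do not say what the letters mean, and with 2 letters they were not read as pairs. The causes of these shifts were not tested, except that leaving out a library leaves 1 in its group. With 2 libraries per group, the number of libraries limits the precision of each difference, as the intervals above show.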
